A study of Mus musculus with 9 samples.

Results

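Open chromatin was examined around 9 genes of DNA methylation and demethylation, Dnmt1, Uhrf1, Dnmt3a, Dnmt3b, Dnmt3l, Tet1, Tet2, Tet3 and Tdg, in 9 ATAC-seq libraries of mouse embryonic stem cells. ATAC-seq inserts sequencing adapters into accessible DNA with the Tn5 transposase, and a peak is a place where insertions pile up. The 9 genes were taken by name from 21887 protein-coding genes, and every peak within 1 kb of either gene end or within 50 kb of the gene was collected. Overlapping peaks of the 9 libraries formed 167 union regions near these genes, of 116362 in the whole series. All cells were E14 of a variant named TOT2N. The TetR-MYBTA line (spelled TetR-MybTA in some labels) has a TetR-MYBTA construct stably integrated, the TetR line has a TetR construct stably integrated, and the WT line is wild type. Each line had 3 libraries. TetR, the tetracycline repressor, binds its operator DNA, and MYB is a transcription factor known from blood progenitors. The labels give neither the promoter of the constructs, nor whether a line is 1 clone, nor whether the 3 libraries came from separate cultures, so a p-value here reflects how far libraries scatter, some of which may be technical.

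DNA methylation in mammals sits mostly on the cytosine of the dinucleotide CG. Dnmt1 encodes the methyltransferase that copies the mark after replication, and Uhrf1 the protein that recruits it to hemimethylated DNA. Dnmt3a and Dnmt3b encode the de novo enzymes, and Dnmt3l their partner without catalytic activity. The TET enzymes oxidise methylcytosine, and Tdg encodes the glycosylase that cuts out the oxidised products so that repair restores cytosine. Tet1 and Tet2 are the main TET genes of mouse embryonic stem cells.

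The lists held 45136 to 59675 peaks in TetR-MYBTA cells, 58762 to 70230 in TetR cells and 56612 to 63098 in WT cells, from 16.4 M to 23 M tags per library. Tags in peaks made up 5.48 to 7.57% of all tags in TetR-MYBTA cells, 9.3 to 9.78% in TetR cells and 7.79 to 8.09% in WT cells. The part of these lengths and shares in the differences below was not tested beyond the rescaled values given. Of 10 embryonic stem cell markers, 5 to 7 had a peak at a gene end in TetR-MYBTA libraries, 6 to 8 in TetR libraries and 6 to 7 in WT libraries, with none in any library at Esrrb and Zfp42. Of 8 fibroblast markers the numbers were 4 in every TetR-MYBTA library, 3 to 5 in TetR and 3 to 6 in WT, with none at Col3a1 and Postn. Of 8 markers of differentiated cells they were 1 to 3, 4 to 6 and 3 to 4 in the same order of lines, with none at Gata4 and Sox17. Of 8 blood progenitor markers they were 3 to 4 in TetR-MYBTA and 3 in every TetR and WT library, with none at Gata1, Itga2b, Ptprc and Runx1. The part of other cells in any result was not tested, and in bulk libraries fewer cells of a type and less opening per cell cannot be told apart.

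Of the annotated starts of the 9 genes, some had a peak in every library and some in none. RefSeq, on the GRCm38.p6 assembly (mm10), gives 16 start windows for them, each of 300 bases, with 250 before and 50 after the start. A peak overlapped 6 of the 16 windows in all 9 libraries, where 29.7% of 21263 windows of protein-coding genes did, and 4 of the 16 in no library, where 48.6% did. The windows of Dnmt1, Dnmt3a, Tet1, Tet2 and Tet3 below are shown because they include a start rich in CG with no peak (Dnmt3a), a start rich in CG with a peak in every library (Tet2), outer and inner starts that differ (Dnmt1), and starts to which results below refer (Tet1 and Tet3). Sequences are 5′ to 3′ on the strand of the gene, with each CG in capitals. CG is its own reverse complement, and 95.4% of all windows hold at least 1.
Dnmt1 outer start (chr9:20959839-20960138, minus strand): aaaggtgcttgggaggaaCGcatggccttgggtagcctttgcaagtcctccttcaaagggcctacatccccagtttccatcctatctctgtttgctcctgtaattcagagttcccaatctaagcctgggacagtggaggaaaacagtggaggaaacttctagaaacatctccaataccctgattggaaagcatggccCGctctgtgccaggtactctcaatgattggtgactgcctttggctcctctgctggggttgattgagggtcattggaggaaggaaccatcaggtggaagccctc
Dnmt1 inner start (chr9:20952930-20953229, minus strand): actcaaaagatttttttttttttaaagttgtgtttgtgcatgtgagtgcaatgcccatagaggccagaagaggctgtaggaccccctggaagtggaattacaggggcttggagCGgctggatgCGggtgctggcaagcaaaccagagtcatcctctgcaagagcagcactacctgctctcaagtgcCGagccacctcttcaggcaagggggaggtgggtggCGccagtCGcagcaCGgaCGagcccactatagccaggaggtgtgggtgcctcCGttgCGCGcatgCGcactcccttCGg
Dnmt3a start 5.6 kb into the gene (chr12:3806910-3807209, plus strand): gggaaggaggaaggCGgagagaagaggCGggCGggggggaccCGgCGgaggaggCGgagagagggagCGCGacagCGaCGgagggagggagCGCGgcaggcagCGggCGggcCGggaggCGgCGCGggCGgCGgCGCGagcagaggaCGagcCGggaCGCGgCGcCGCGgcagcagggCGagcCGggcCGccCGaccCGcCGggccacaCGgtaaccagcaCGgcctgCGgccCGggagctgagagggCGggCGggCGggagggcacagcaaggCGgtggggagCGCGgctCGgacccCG
Tet1 start (chr10:62887275-62887574, minus strand): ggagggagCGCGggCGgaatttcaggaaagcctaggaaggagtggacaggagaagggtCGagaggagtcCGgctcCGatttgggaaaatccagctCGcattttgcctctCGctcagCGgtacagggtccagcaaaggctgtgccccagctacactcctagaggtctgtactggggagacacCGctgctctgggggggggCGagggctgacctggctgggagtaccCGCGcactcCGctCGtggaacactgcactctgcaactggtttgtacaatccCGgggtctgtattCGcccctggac
Tet2 start (chr3:133544341-133544640, minus strand): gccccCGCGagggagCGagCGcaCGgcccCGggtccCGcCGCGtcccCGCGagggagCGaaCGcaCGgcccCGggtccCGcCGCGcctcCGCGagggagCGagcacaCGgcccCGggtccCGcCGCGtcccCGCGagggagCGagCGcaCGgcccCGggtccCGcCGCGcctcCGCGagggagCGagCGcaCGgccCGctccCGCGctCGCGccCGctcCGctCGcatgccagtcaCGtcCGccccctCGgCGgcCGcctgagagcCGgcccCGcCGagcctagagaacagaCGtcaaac
Tet3 inner start (chr6:83441629-83441928, minus strand): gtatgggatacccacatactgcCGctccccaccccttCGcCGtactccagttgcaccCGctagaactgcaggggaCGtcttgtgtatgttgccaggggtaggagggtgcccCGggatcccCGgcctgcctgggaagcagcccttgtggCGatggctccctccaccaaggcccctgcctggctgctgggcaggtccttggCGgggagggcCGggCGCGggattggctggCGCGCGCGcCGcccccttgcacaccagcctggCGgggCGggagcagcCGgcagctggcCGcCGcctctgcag

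The Tet2 window held 57 CG, more than 99.8% of all windows, and was overlapped by a peak in all 9 libraries. The Dnmt3a window held 47 CG, more than 98.2% of windows, and its overlapping neighbour (chr12:3806730-3807029) held 46, yet neither had a peak in any library. Over all windows the median was 23 CG with a peak in all 9 libraries and 20 with a peak in 1 to 8. It was 4 with none, so the 2 Dnmt3a windows stood far above the usual CG number of windows with no peak. The 2 windows share bases, and the share of windows this rich in CG that have no peak was not computed. Peaks lay to both sides of the 2 Dnmt3a windows. One region (chr12:3806282-3806542) had a peak in TetR-MYBTA replicate 3 and TetR replicate 1, and another (chr12:3808023-3808420) in no TetR-MYBTA library, in 2 TetR and in 2 WT libraries. An inner Dnmt3a start, 90.2 kb into the gene (chr12:3891494-3891793, 18 CG), had a peak over it in 2 TetR-MYBTA, 1 TetR and 3 WT libraries. It lies where mouse embryonic stem cells are known to start a shorter Dnmt3a form.

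At Dnmt1 the outer start held 2 CG and had no peak in any library, while the start 6.91 kb into the gene held 12 CG and had a peak in all 9. A further start just inside it (chr9:20952574-20952873, 33 CG) was overlapped in 3 TetR-MYBTA, 2 TetR and 3 WT libraries. Mouse Dnmt1 is known to use separate first exons in oocytes and in somatic cells. Tet3 likewise had a peak in every library at an inner start, 15.5 kb into the gene, with 22 CG. The Tet1 window held 17 CG, more than 57.3% of windows, and had a peak in no TetR-MYBTA, 2 TetR and 1 WT libraries. Both Uhrf1 windows (12 and 33 CG) and the Tdg window (26 CG) had a peak in all 9. The Dnmt3b window (30 CG) was overlapped in no TetR-MYBTA, 2 TetR and 2 WT libraries. Of the 3 Dnmt3l windows, which held 6, 4 and 3 CG, the outermost had no peak, the next had one in 2 TetR-MYBTA, 3 TetR and 2 WT libraries, and the innermost in 2, 1 and 1.

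**Figure D1:**
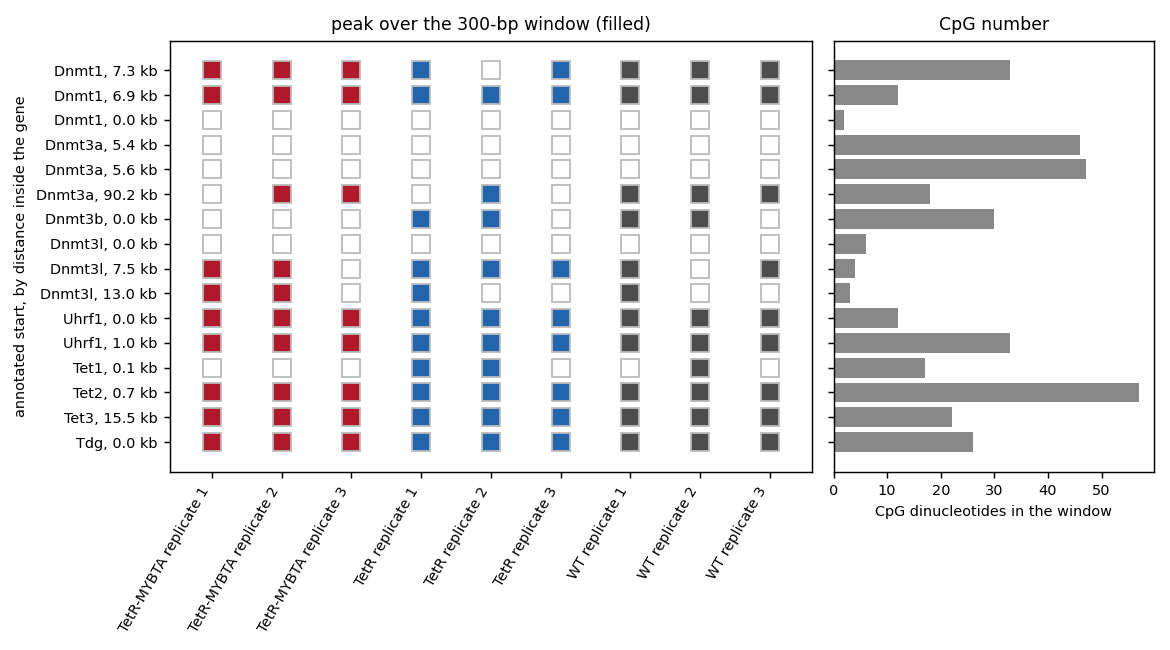
Filled squares mark the libraries in which a peak overlaps each 300-bp window of the 16 annotated starts, named by gene and by distance in kb inside the gene, and bars give the number of CG dinucleotides in the window. Both Dnmt3a windows with 46 and 47 CG are empty in all 9 libraries, and the Tet2 window with 57 is filled in all 9.

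A peak within 1 kb of a gene end was present in all 9 libraries at 3 of the 9 genes, Uhrf1, Tet2 and Tdg, where 44.2% of 21887 protein-coding genes had one in all 9. It was absent from all 9 at Dnmt1, Dnmt3a and Dnmt3l, where 37.5% of genes had none. Among the maintenance genes, Uhrf1 (chr17:56303337-56323486) had a pair of regions at its 5′ end (chr17:56303163-56303458 and chr17:56304110-56304368), each with a peak in all 9 libraries. Dnmt1 (chr9:20907206-20959888) had no peak at either end, and the region over its inner starts (chr9:20952789-20953068) had a peak in all 9. With gene ends taken as 2.5 kb, 4 genes had such a peak in all 9 libraries and 2 in none. The shares of all genes at 2.5 kb were not computed, and those above are for 1 kb.

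Of the de novo genes, Dnmt3b (chr2:153649411-153687730) had gene-end peaks in 1 TetR-MYBTA, 2 TetR and 3 WT libraries, spread over 4 short regions at its 5′ end. The first (chr2:153649296-153649590) had a peak in no TetR-MYBTA, 2 TetR and 2 WT libraries. The second (chr2:153649658-153649917) had a peak in 1 TetR-MYBTA and 1 TetR library, and the third (chr2:153649960-153650160) in 1 WT library. The fourth (chr2:153650170-153650372) had a peak in 1 TetR and 1 WT library. No Dnmt3b gene-end region was shared by all libraries of any line. Dnmt3a (chr12:3801559-3914443) and Dnmt3l (chr10:78042287-78063622) had none.

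Among the genes of oxidation and excision, Tet2 (chr3:133463677-133545136) had a gene-end region at chr3:133544224-133544463 with a peak in all 9 libraries and a second (chr3:133544908-133545125) in 2 TetR-MYBTA, 2 TetR and 3 WT libraries. Tdg (chr10:82629814-82650799) had 1 region (chr10:82629654-82629879) in all 9. Tet3 (chr6:83362373-83457208) had a peak at its outer 5′ end (chr6:83456482-83457300) in 1 TetR-MYBTA, 3 TetR and 3 WT libraries. Tet1 (chr10:62804570-62887469) had gene-end peaks in 1 TetR-MYBTA, 2 TetR and 1 WT libraries. They lay at its 3′ end (chr10:62804121-62804374, in 1 TetR-MYBTA and 2 TetR libraries) and at its 5′ end (chr10:62887355-62887586, in 2 TetR and 1 WT libraries, and chr10:62886811-62887005, in 1 TetR library). TetR-MYBTA thus had no peak at the 5′ end of Tet1, and the other lines did not have it in every library.

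**Figure D2:**
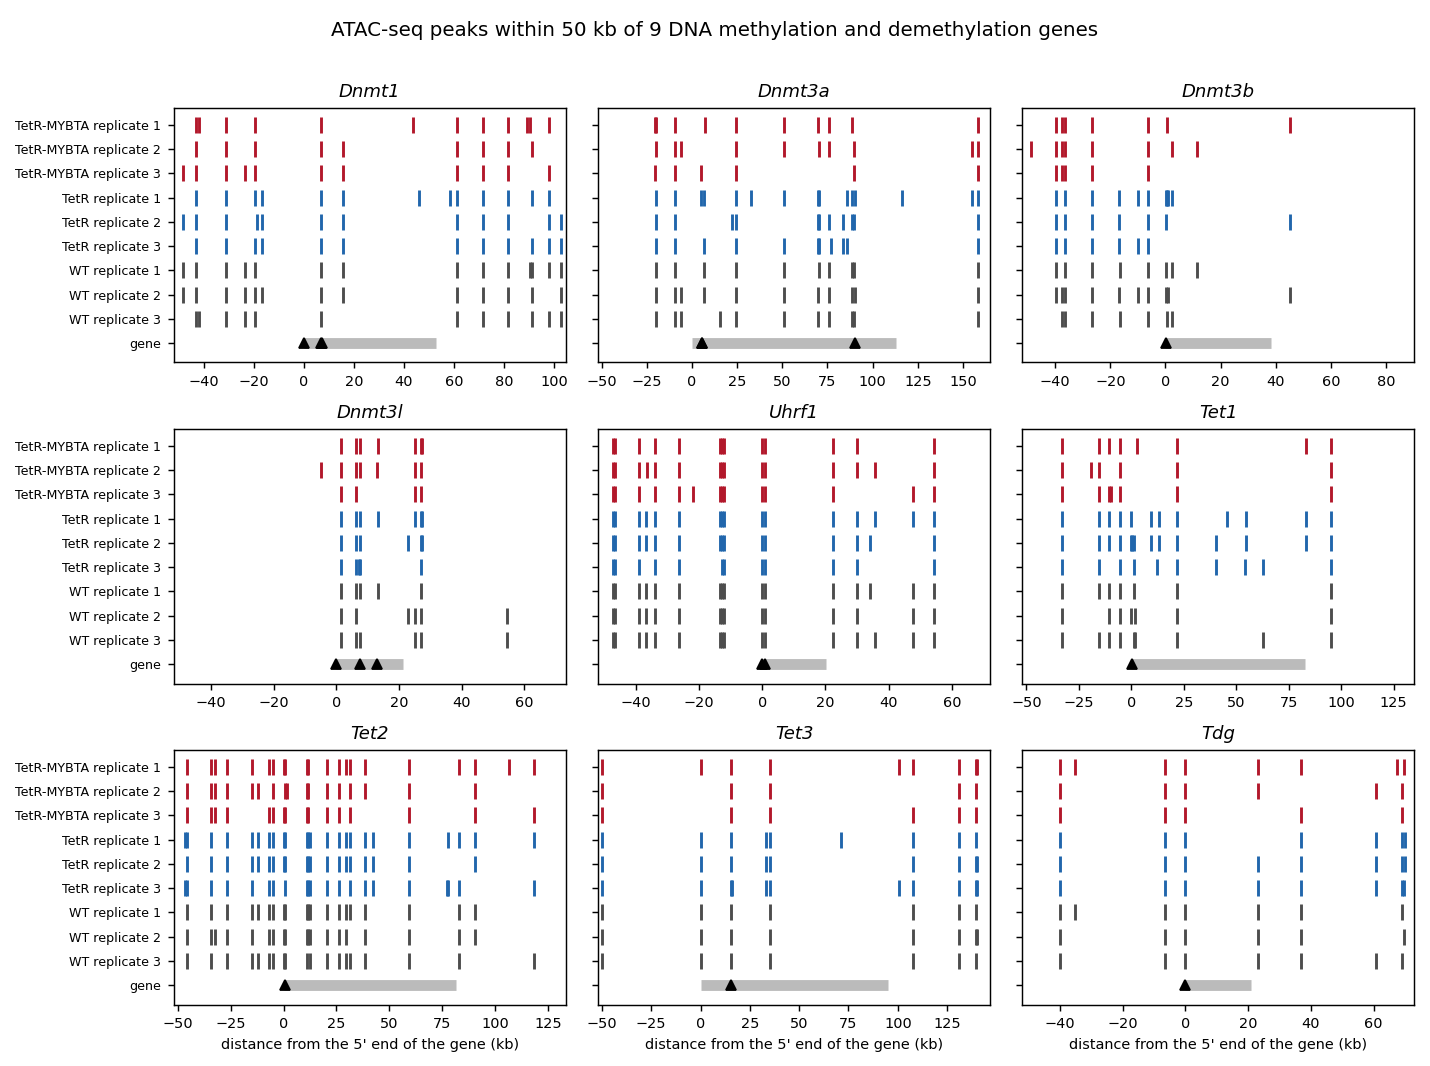
Every peak within 50 kb of each gene is drawn as a tick at its distance in kb from the 5′ end of the gene, with 1 row per library, the gene as a grey bar and annotated starts as triangles. Ticks line up over all 9 libraries at the starts of Uhrf1, Tet2 and Tdg and at the inner starts of Dnmt1 and Tet3, and TetR has additional ticks inside Tet1.

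Tet2 had more regions than any other of the 9 genes, 29 within 50 kb, and 16 of them overlapped the gene itself. Of the 16, 5 had a peak in all 9 libraries, at 0.79, 10.84, 20.30, 26.17 and 59.11 kb from the 5′ end. A place in a peak list is given as a percentile in which 100 is the first row of the list. The sources used here do not give the rule by which rows were ordered. The region at 10.84 kb (chr3:133534171-133534422) stood at 98.1, 98.1 and 97.2 in TetR-MYBTA cells, at 98.4, 98.7 and 97.5 in TetR cells and at 97.4, 98.5 and 99 in WT cells. The region at 20.30 kb (chr3:133524688-133524985) stood at 97.1 to 98.1 in TetR-MYBTA cells, 98.3 to 98.9 in TetR cells and 94.7 to 96.7 in WT cells. The region at 26.17 kb (chr3:133518830-133519102) stood at 93 to 95.3, 96.7 to 97.9 and 94.9 to 97.4 in the same order. All 3 regions were near the first rows of every list. The gene-end region at 0.79 kb stood at 88.5 to 94.8, 93 to 94.6 and 94.2 to 95.7. The region at 59.11 kb (chr3:133485870-133486180) was far lower, at 17.2 to 44.2 in TetR-MYBTA cells, 59.4 to 70.4 in TetR cells and 36.2 to 65.5 in WT cells.

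The other 11 regions inside Tet2 were missing from at least 1 library. Near the 5′ end, the region at 0.12 kb is given above, and 1 at 1.82 kb (chr3:133543210-133543418) had a peak in TetR-MYBTA replicate 2 alone. Towards the 3′ end, the region at 29.36 kb (chr3:133515655-133515905) had a peak in 1 TetR-MYBTA, 2 TetR and 3 WT libraries, that at 31.48 kb (chr3:133513539-133513770) in 3, 3 and 2, and that at 38.41 kb (chr3:133506605-133506845) in 2, 3 and 3. The region at 42.06 kb (chr3:133502960-133503186) had a peak in all 3 TetR libraries, at 53.6, 48.8 and 58.1 in their lists, and in none of TetR-MYBTA or WT. The nearest peak of TetR-MYBTA lay 3419 bp away and that of WT 3424 bp. Furthest in, regions at 77.05 kb (chr3:133467989-133468186) and 77.76 kb (chr3:133467274-133467481) had a peak in 1 and 2 TetR libraries and in no other line.

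Around 12 kb into Tet2 the lines differed in which of several neighbouring peaks they had. The region at 12.30 kb (chr3:133532717-133532961) had a peak in no TetR-MYBTA library, in all 3 TetR libraries, at 91.5, 88.7 and 86.6, and in all 3 WT libraries, at 87.7, 89.3 and 87.2. The region at 11.63 kb (chr3:133533377-133533638) had a peak in TetR-MYBTA replicates 2 and 3, in all TetR libraries and in WT replicates 1 and 2. TetR-MYBTA replicate 1 instead had a peak at 11.34 kb (chr3:133533696-133533889), which no other library had. Every TetR-MYBTA library therefore had a peak here, the nearest of them 422 bp from the region at 12.30 kb. When absence required that no peak lay within 1 kb, the region no longer counted as missing in TetR-MYBTA. Peaks of a list were kept at least 386 to 416 bp apart, per the file headers, so closer neighbours can be listed as 1. All TetR libraries and WT replicates 1 and 2 nevertheless listed separate peaks at 11.63 and 12.30 kb. The part of the spacing in the missing TetR-MYBTA peak at 12.30 kb was not tested.

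**Figure D3:**
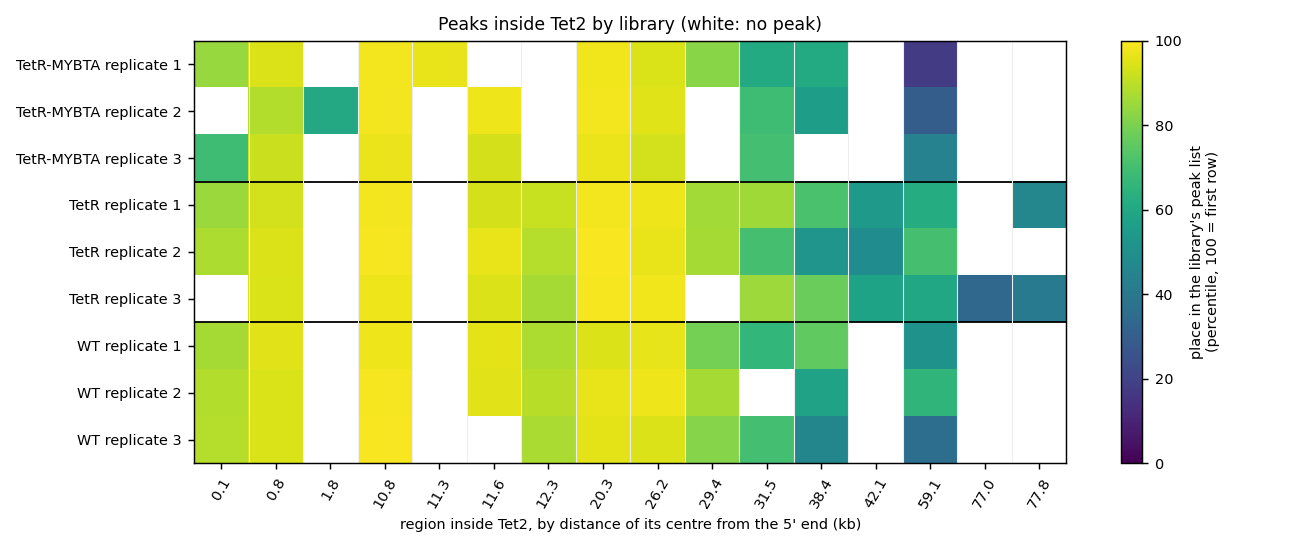
The 16 regions that overlap Tet2 are shown from left to right by distance in kb from the 5′ end, with 1 row per library and colour for the place of the peak in the list of that library (percentile, 100 for the first row, white for no peak). Regions at 10.8, 20.3 and 26.2 kb are filled in all 9 libraries, that at 12.3 kb in all TetR and WT libraries only, and that at 42.1 kb in all TetR libraries only.

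Against TetR, the line with the construct that lacks the MYB part, TetR-MYBTA differed at few of the 167 regions. A peak in all 3 TetR-MYBTA and no TetR library was found in 2 regions (1.2%), where 1.05% of 91084 regions within 50 kb of a protein-coding gene had that pattern. The reverse was found in 5 regions (2.99%), where 4.71% had it. One of the 2 lay 37360 bp before Dnmt3b, near Commd7 (chr2:153611772-153612051), with a peak in 3 TetR-MYBTA, no TetR and 2 WT libraries and a TetR peak 616 bp away. The other lay 32265 bp before Tet2 (chr3:133577401-133577664), with a peak in 3, 0 and 1 libraries and the nearest TetR peak at 1635 bp. The 5 reverse regions comprised the Tet2 regions at 12.30 and 42.06 kb and 1 region 33.42 kb into Tet3 (chr6:83423667-83423901), which stood at 29, 23.9 and 30.7 in TetR and had no peak in TetR-MYBTA or WT. The remaining pair had a peak in no TetR-MYBTA, 3 TetR and 1 WT libraries and lay inside neighbouring genes, S1pr2 before Dnmt1 (chr9:20976685-20976919) and Commd7 before Dnmt3b (chr2:153632301-153632542). The share of TetR-MYBTA regions lay near the background and that of TetR regions below it. With lists of equal length the balance turned, to 4 regions of TetR-MYBTA and 3 of TetR, and without TetR replicate 3 the 5 became 12. The background shares were not computed under these settings.

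Against WT, no region had a peak in all 3 TetR-MYBTA and no WT library (background 0.909%). The reverse was found in 3 regions (1.8%, background 2.98%). These were the Tet2 region at 12.30 kb, a region near Fem1a before Uhrf1 (chr17:56266381-56266629) with a TetR-MYBTA peak 221 bp away, and a region 49.8 kb beyond Dnmt1, nearest to Shfl (chr9:20857180-20857456), with a peak in 2 TetR libraries as well. A peak in all 3 TetR and no WT library was found in 2 regions (1.2%, background 2.3%), those at 42.06 kb of Tet2 and 33.42 kb of Tet3, and the reverse in 1 (0.599%, background 1.38%). The last lay before Dnmt1 (chr9:20983187-20983491) with a peak in 1 TetR-MYBTA library too. With all lines together, no region was private to TetR-MYBTA (background 0.411%), 1 was missing in TetR-MYBTA alone (0.599%, background 1.24%) and 2 were private to TetR (1.2%, background 1.41%). Regions with a peak in all 9 libraries numbered 47 (28.1%, background 23.4%), and those with a peak in 1 library 33 (19.8%, background 24.7%). A peak in all 9 libraries was found in 4 of 12 regions at 5′ ends (33.3%), 11 of 60 regions inside the genes (18.3%) and 32 of 94 outside them (34%), shares that were not tested against each other or against other genes.

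The number of peaks within 50 kb was compared between TetR-MYBTA and the other 6 libraries for all 20443 genes with a peak, by a two-sided exact permutation test of 3 against 6 libraries, whose smallest p is 0.0119, with Benjamini-Hochberg adjustment over all of them. No gene passed the adjusted threshold of 0.05 (0%), and the smallest adjusted p of any gene in these exact tests was 0.124. At an unadjusted exact p under 0.05 stood 1 of the 9 genes, Dnmt3a, and 20.7% of all genes. In no member did the 3 TetR-MYBTA libraries lie all below the other 6, where 11.7% of genes showed that, or all above them, where 0.832% did. The median difference of the 9 genes was -1.83 peaks, against -0.833 over all genes, and the members have more peaks, with a median of 8.89 per gene and library against 5.

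Dnmt3a had 10, 10 and 6 peaks in TetR-MYBTA cells, 15, 11 and 11 in TetR cells and 10, 11 and 11 in WT cells. The TetR-MYBTA values lay below all TetR values, as they did at Tet1, and overlapped those of WT. In a contrast of 3 with 3 libraries no exact p can go below 0.10. The share of all genes separated in this way was not computed. The difference of TetR-MYBTA from the other 6 libraries at Dnmt3a was -2.83 peaks (8.67 ± 2.31, SD, n = 3, against 11.5 ± 1.76, SD, n = 6; exact permutation p = 0.0357, adjusted p = 0.195). Per 10000 peaks of the library Dnmt3a had 1.59 ± 0.227 in TetR-MYBTA cells, 1.89 ± 0.235 in TetR cells and 1.79 ± 0.0541 in WT cells (SD, n = 3 each), and the unadjusted call ended on that scale and with lists of equal length, where the difference was -0.333 peaks. It also ended without any 1 library other than WT replicate 1, but such tests have fewer arrangements than 84. The difference was -3.5 peaks without TetR-MYBTA replicate 1 or 2 and -1.5 without replicate 3. It was -2.13 without TetR replicate 1 and -2.93 without TetR replicate 2 or 3 or WT replicate 2 or 3. The end of the call alone therefore does not show that the difference rests on single libraries. Chromosome 12, which carries Dnmt3a, held 3.87% of peaks in TetR-MYBTA cells, 4.14% in TetR cells and 4.05% in WT cells.

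Tet1 had 12, 14 and 10 peaks in TetR, 8, 6 and 7 in TetR-MYBTA and 7, 7 and 9 in WT. Every TetR library lay above the other 6, which was so for 1 of the 9 genes and for 6.15% of all genes (for 2 of the 9, with Tet3, without TetR-MYBTA replicate 1). No member had every TetR library below the other 6 (background 0.328%). TetR minus the other 6 was 4.67 peaks, a comparison chosen after the values were seen and not tested. TetR remained above the others per 10000 peaks of the library, with 1.84 ± 0.241 in TetR, 1.32 ± 0.249 in TetR-MYBTA and 1.29 ± 0.205 in WT (SD, n = 3 each). With lists of equal length the difference was 2.33 peaks and among the first 50% of rows 0.667, and the libraries overlapped in both. The additional peaks lay inside the gene, which overlapped 6, 8 and 6 peaks in TetR, 2, 1 and 1 in TetR-MYBTA and 2, 3 and 4 in WT. Of 14 regions that overlapped Tet1, 8 had peaks in TetR libraries only, 1 in TetR-MYBTA only and 1 in WT only. None of the 8 had a peak in all 3 TetR libraries. Over the 9 genes, 21 of 72 regions that overlapped a gene had peaks in TetR libraries only. Among them were 3 of 6 in Tet3 and 5 of 17 in Dnmt3a, with none in Dnmt3b, Uhrf1 and Tdg. The same share over regions inside all genes was not computed. For all regions within 50 kb of the 9 genes, inside or outside them, peaks in libraries of 1 line only made up 15.6% for TetR (background 15.1%). They made up 9.58% for TetR-MYBTA (background 7.95%) and 3.59% for WT (background 10.1%).

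Tet2 had 21, 17 and 16 peaks in TetR-MYBTA cells, 24, 20 and 21 in TetR cells and 20, 19 and 19 in WT cells. The lines overlapped, and the difference of TetR-MYBTA from the other 6 was -2.5 peaks (exact permutation p = 0.202, adjusted p = 0.442). Counted within 10 kb of Tet2 it was -2.83 peaks (unadjusted exact permutation p = 0.0357). Dnmt1 had 12, 9 and 11 peaks in TetR-MYBTA cells, 13, 12 and 12 in TetR cells and 14, 13 and 12 in WT cells, a difference of -2 peaks (exact permutation p = 0.0595, adjusted p = 0.239). Its chromosome, 9, held 4.37% of peaks in TetR-MYBTA cells, 4.92% in TetR cells and 5.15% in WT cells, whose part in the difference was not tested. Tet3 had 9, 5 and 6, 9, 9 and 11, and 7, 8 and 7 in the same order of lines. All its TetR values lay above all WT values, a pattern whose share over all genes was not computed. TetR-MYBTA minus the other 6 was -1.83 peaks at Tet3 (exact permutation p = 0.19, adjusted p = 0.429), and in the upper 50% of lists -2.67 (unadjusted exact permutation p = 0.0119). The share of all genes with so small a p was not computed within 10 kb or in the upper 50% of lists. The stretch of chromosome 6 that holds Tet3, from 68 to 84 Mb, held 0.321% of peaks in TetR-MYBTA cells, 0.599% in TetR cells and 0.348% in WT cells, and the part of that stretch in the Tet3 values was not tested. Dnmt3b, Dnmt3l, Uhrf1 and Tdg differed from the other 6 by -1.33, 0.167, -1 and -0.833 peaks, with exact permutation p from 0.298 to 1. Summed over the 9 genes there were 95, 83 and 74 peaks in TetR-MYBTA cells, 113, 102 and 96 in TetR cells and 94, 95 and 94 in WT cells. Per 10000 peaks the sums were 15.6 ± 0.94, 16 ± 0.45 and 15.8 ± 0.775 (SD, n = 3 each) in the same order, and differed by less than the spread between libraries.

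**Figure D4:**
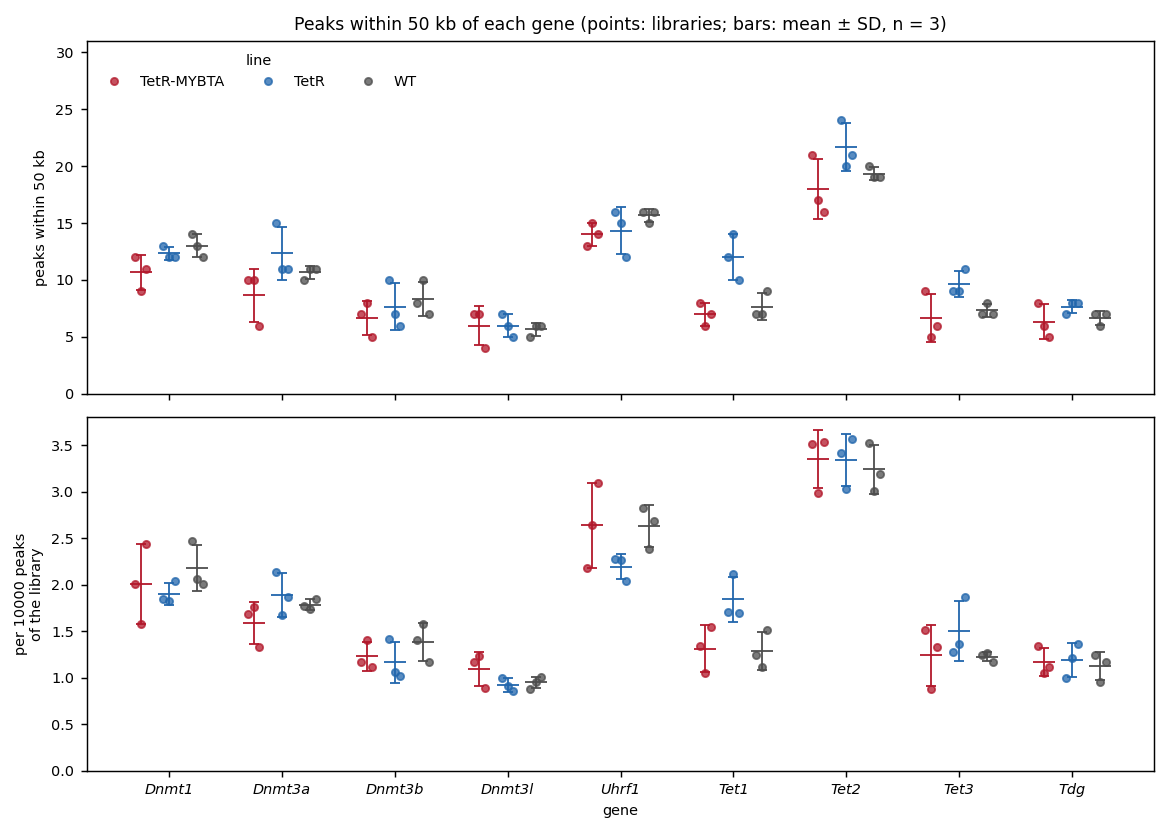
Points give the number of peaks within 50 kb of each gene in every library, as counted (upper panel) and per 10000 peaks of the library (lower panel), with means and SD as bars (n = 3). The 3 TetR libraries lie above the other 6 at Tet1 on both scales, and no gene has all TetR-MYBTA libraries apart from the other 6 in the upper panel.

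The 47 regions found in every library were next placed among all regions found in every library, which gives each list the same set to order. TetR-MYBTA stood above all other 6 libraries at 1 of the 47 (2.13%, against 8.88% of 21345 constant regions) and below them at 3 (6.38%, against 9.69%). TetR stood above at 2 (4.26%, against 8.69%) and below at 1 (2.13%, against 6.61%). These comparisons were chosen after the data were seen and carry no test. The region 22.02 kb into Tet1 (chr10:62865325-62865564) stood at 7.34, 26.1 and 12.2 in TetR-MYBTA cells, at 59.5, 59.3 and 57.9 in TetR cells and at 32.5, 43 and 33.1 in WT cells. The 3 lines did not overlap there, with TetR-MYBTA lowest and TetR highest. A region 5405 bp before Tet1 (chr10:62892874-62893238) averaged 71.8 ± 2.64 in TetR, 63.8 ± 5.33 in TetR-MYBTA and 51.5 ± 6.89 in WT (SD, n = 3 each). The lowest TetR library there, at 69.8, was barely above the highest of TetR-MYBTA, at 69.5. At the inner Tet3 start, whose sequence is given above, the region (chr6:83441536-83441817) stood at 13.9, 4.75 and 19.5 in TetR-MYBTA cells, at 25.1, 33.7 and 33.9 in TetR cells and at 26.7, 26.8 and 25.7 in WT cells. TetR-MYBTA was also lowest beyond Dnmt3l (chr10:78069187-78069476), at 6.83 ± 2.79, against 16.4 ± 9.03 in TetR and 24.6 ± 1.86 in WT. The margin to TetR was narrow, with a TetR-MYBTA maximum of 9.91 and a TetR minimum of 10.1. TetR-MYBTA was highest before Tdg (chr10:82589769-82590044), at 26 ± 6.42, against 3.1 ± 2.4 in TetR and 5.36 ± 3.68 in WT. TetR was lowest before Uhrf1 (chr17:56290423-56290692), at 49 ± 4.78, against 62.5 ± 1.91 in TetR-MYBTA and 69.4 ± 12.5 in WT (SD, n = 3 each).

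**Figure D5:**
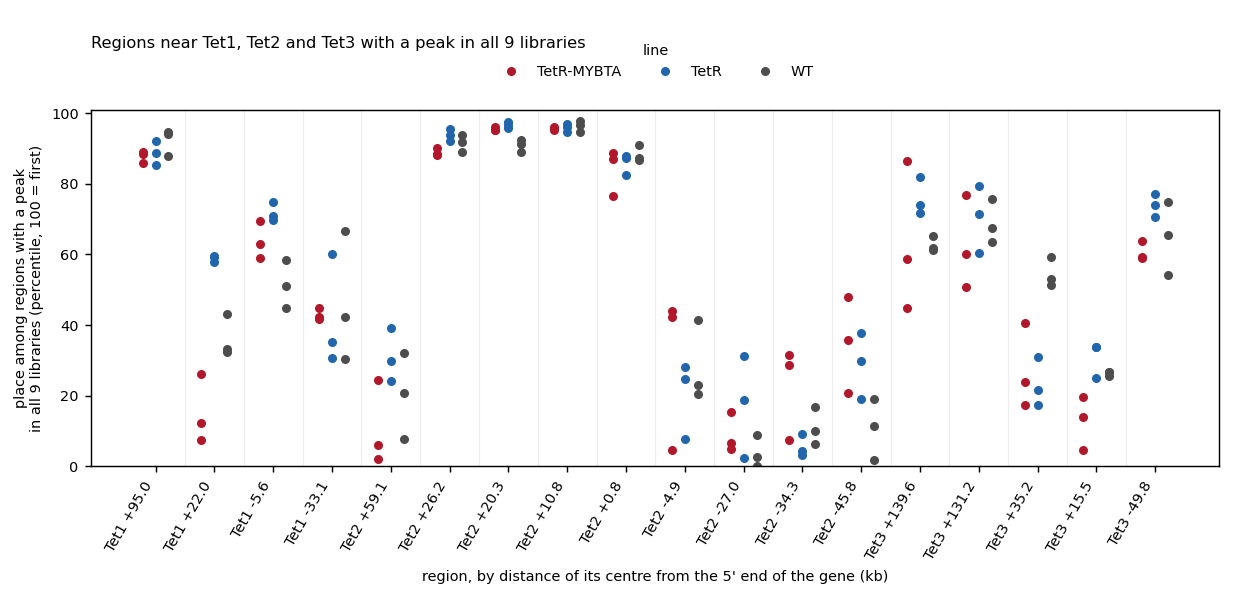
Each point is the place of 1 library for a region near Tet1, Tet2 or Tet3 with a peak in all 9 libraries (percentile among all such regions, 100 for the first), and regions are named by gene and distance in kb from its 5′ end. The 3 lines do not overlap at the region 22.02 kb into Tet1, and at the inner start 15.5 kb into Tet3 TetR-MYBTA lies below the other 6 libraries.

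Other genes that read, protect or process DNA methylation were counted from a list of 50, of which 49 matched a protein-coding gene, Dnmt3c being the exception. In 11 of the 49 (22.4%) all 3 TetR-MYBTA libraries had fewer peaks within 50 kb than the other 6, beside the 11.7% of all genes, and in none had they more. These genes had a median of 6.67 peaks per library, against 5 over all genes. An unadjusted exact p under 0.05 was reached by 14 of the 49, beside 20.7% of all genes. An adjusted p under 0.05 was reached by none, as over all genes. With lists of equal length 5 of the 49 were lower in this way (10.2%, beside 5.98% of all genes): Kdm2a, Pcna and Ung of the 11, with Prdm14 and Uhrf2 besides. Per 10000 peaks of the library 3 were (6.12%, beside 10.2%), Ehmt2, Kdm2a and Mbd3. The widest difference was at Kdm2a, which encodes a histone demethylase that binds unmethylated CG, with 4, 5 and 4 peaks in TetR-MYBTA cells, 11, 11 and 9 in TetR cells and 10, 10 and 9 in WT cells. Its difference was -5.67 peaks (exact permutation p = 0.0119, adjusted p = 0.124), and its chromosome, 19, held 1.9, 2.51 and 2.43% of peaks in the same order of lines. Kdm2b, its paralog, differed by -3.17. Mbd3, a subunit of the NuRD complex, differed by -3.83 and Mbd6, which has a domain of the same family, by -3.5. Ung, a uracil glycosylase of base excision repair, differed by -3.67, and Idh2, a mitochondrial enzyme that makes the TET cofactor 2-oxoglutarate, by -3.17. Ehmt2 and Ehmt1, the histone H3 lysine 9 methyltransferases G9a and GLP, differed by -3.5 and -3. Pcna, the sliding clamp of replication, tied with Ehmt1 at -3. None of these genes passed the adjustment over all genes (exact permutation tests, adjusted p from 0.124 to 0.23). In TetR-MYBTA, TetR and WT cells, chromosome 5 (Kdm2b, Ung) held 5.48, 5.83 and 6.15% of peaks. Chromosome 7 (Idh2) held 5.64, 5.86 and 6.24%, and 17 (Ehmt2) 3.95, 4.32 and 4.27%. Chromosome 2 (Ehmt1, Pcna) held 7.15, 7.52 and 7.7%, and 10 (Mbd3, Mbd6) 5.65, 5.58 and 5.62%. The part of these shares in the differences was not tested.

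By peak numbers within 50 kb over the 9 libraries, the genes on other chromosomes most like Tet2, of 1995 with a similar mean, were Msantd3 (Pearson r = 0.956), Atg4d (0.944) and Lrrc74a (0.943). The 9 points share the lengths of the lists, and the values are a description only.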

How the data were processed

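Chromatin accessibility was measured by ATAC-seq with Tn5 transposase from Nextera (per the labels' protocols) in 3 libraries each of the TetR-MYBTA, TetR and WT lines, grouped by their titles. Bowtie2, HOMER 4.11, deepTools 3.5.5, Trim Galore 0.6.10, Picard, FastQC and the mm10 build are listed, per the submitters' processing notes. Adapter-offset shifts and removal of blacklisted regions are not given in the sources used here. HOMER called peaks library by library, without pooling or a control, per the file headers. Those headers set the threshold at 11 or 12 tags, the false discovery rate at 0.001, the local p-value at 0.0001, the excess over 10 kb at 4-fold and tags per position at 1. The deposited score is 1 in every row of the lists, so the planned ranking by score or tag number was replaced by row order. Tag counts per peak were not used, so a peak is present or absent and no interval is given for a single peak.

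Peak starts were converted to count from 1. Peaks overlapping by at least 1 bp formed union regions. Genes, strands and start windows came from RefSeq tables for GRCm38.p6. Overlapping windows of opposite strands matched after reverse complement in 200 of 200 cases checked. Exact permutation tests compared 3 with 6 libraries (84 arrangements) over all genes, and 3 with 3 cannot go below 0.10. The members, lists and tests were chosen with earlier results of these data known. Named regions were those within 1 kb of a gene end, those inside Tet2, and those with a peak in all libraries of 1 line and none of another. Of the other genes of the pathway, the 8 with the widest difference of means among those without overlap were named, and Pcna, which tied with the last of them. Regions ranked among the constant ones, start windows and the counts for TetR against the other 6 libraries were added after the data were seen. Other settings tried were equal list lengths, the first 50% of rows, a 50% overlap, joining over 200 bp, no peak within 1 kb, presence in at least 2 of 3 libraries, 10 kb, gene ends of 2.5 kb, peaks per 10000, leaving out each library and the replicate number as a block. Counting and tests were tested on simulated data. Python 3.11.15, numpy 2.4.6, pandas 2.3.3 and matplotlib 3.10.9 were used.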

Additional observations from a re-analysis of the deposited data

How the results depend on the processing

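Counts of regions near the 9 genes are small and moved with the settings. The shares over all regions were computed for the main setting only, so the counts below have no background beside them. Counts not listed for a setting were equal or close to those of the main setting. With lists of equal length there were 4 regions in TetR-MYBTA and not TetR, 3 in TetR and not TetR-MYBTA, 1 in TetR-MYBTA and not WT, 1 in TetR and not WT, 1 private to TetR-MYBTA and 1 private to TetR. Lists of equal length also gave 2 in WT and not TetR-MYBTA. In the upper 50% of each list, 0 regions were in TetR-MYBTA and not TetR, and 6 in TetR and not TetR-MYBTA. At that setting 1 was in TetR-MYBTA and not WT, and 5 in WT and not TetR-MYBTA. There were 2 in TetR and not WT, 3 in WT and not TetR, 2 missing only in TetR-MYBTA and 1 private to TetR. Joining peaks up to 200 bp apart gave 2 missing only in TetR-MYBTA. With no peak of the other line within 1 kb there were 1 in TetR-MYBTA and not TetR, 1 in WT and not TetR-MYBTA, and 0 missing only in TetR-MYBTA. With a peak in at least 2 of 3 libraries there were 21 in TetR and not TetR-MYBTA, 1 in TetR-MYBTA and not WT, 9 in WT and not TetR-MYBTA, 13 in TetR and not WT, 5 in WT and not TetR, 1 private to TetR-MYBTA, 6 missing only in TetR-MYBTA and 11 private to TetR. Within 10 kb there were 0 in TetR-MYBTA and not TetR, 3 in TetR and not TetR-MYBTA, 1 in WT and not TetR-MYBTA and 0 in WT and not TetR. Without each library in turn the counts ranged from 2 to 3 (TetR-MYBTA not TetR), 5 to 12 (TetR not TetR-MYBTA), 0 to 1 (TetR-MYBTA not WT), 4 to 7 (WT not TetR-MYBTA), 3 to 8 (TetR not WT), 1 to 4 (WT not TetR), 0 to 1 (private to TetR-MYBTA), 1 to 2 (missing only in TetR-MYBTA) and 2 to 6 (private to TetR). The highest TetR counts (12, 8 and 6) came without TetR replicate 3, the 7 for WT without TetR-MYBTA replicate 1 and the 4 without WT replicate 1. Requiring fewer libraries can only raise such counts.

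The summed difference of TetR-MYBTA from the other 6 libraries was -3.67 peaks with lists of equal length and -0.256 per 10000 peaks, against -15 as counted, and ranged from -20.5 to -10 without each library. Members with an unadjusted exact p under 0.05 numbered 0 with lists of equal length and 0 per 10000 peaks. They numbered 0 to 1 without each library and 2 within 10 kb (Dnmt3a, exact p = 0.0119, and Tet2, exact p = 0.0357). The call of Dnmt3a ended without any 1 library but WT replicate 1, in tests with fewer arrangements than 84. Without each library the Dnmt3a difference ran from -3.5 to -1.5 peaks. In the upper 50% of each list the 1 member was Tet3 (-2.67, exact p = 0.0119), and Dnmt3a had exact p = 0.405. The share of all genes under 0.05 was 20.7% at the main setting and was not computed for the others. Signs turned for Tdg with lists of equal length (0.833), for Dnmt3l in the upper 50% (-0.667) and without TetR-MYBTA replicate 1 or 2 (-0.333, with a range up to 1.17 without each library), and per 10000 peaks for Uhrf1 (0.225), Tet2 (0.0575) and Tdg (0.0119). No effect shared by libraries of the same replicate number was seen: correlations of same-numbered deviations lay between -0.00494 and 0.00694 over 9 pairs. Those of differently numbered libraries lay between -0.0142 and 0.0121. These values cannot show whether same-numbered libraries were prepared together. With the replicate number as a block (exact tests, smallest p 0.037), Dnmt1 had p = 0.037 and Dnmt3a p = 0.0741, and 1 member stood under 0.05. The causes were not tested. Lists of presence calls cannot show differences in height, and an absent peak is one below the threshold.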
